A study of Mus musculus with 12 samples.

Results

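The genes described here are the 52 named subunits and enzymes of the NuRD, BAF, Polycomb, DNA methylation and DNA demethylation machinery, taken by symbol from a table of 23234 genes and short RNAs. They comprise 13 NuRD genes, 22 BAF and PBAF genes, 5 genes of Polycomb repressive complex PRC2, 3 of PRC1, 3 DNA methyltransferases, 3 TET dioxygenases, and the trio Kdm1a, Rcor1 and Sirt1. RNA-seq had been performed on pre-selection CD4+CD8+ (DP) thymocytes sorted as CD24hiTCRβlo from the thymus of C57BL/6 mice. The groups were 5 wild-type newborn libraries, 3 newborn libraries from Bcl11bm/m mice and 4 libraries from Bcl11bfl/fl:Cd4-Cre mice. Bcl11bm/m mice are homozygous for a frameshift allele that removes the last zinc finger of the protein and die as neonates, so that this Bcl11b protein is altered in every cell from the start. In Bcl11bfl/fl:Cd4-Cre mice a floxed allele is deleted by Cre under Cd4 control, which acts around the DP stage, and the labels give no age for them. The extraction protocol attached to every sample instead names DN NKT cells, sorted after DP cells had been depleted, whereas the source names and descriptions give DP thymocytes. The study's results refer to RNA-seq of pre-selection thymocytes, and its RNA-seq methods name no population. Age and genotype cannot be told apart in comparisons with the Bcl11bfl/fl:Cd4-Cre group. The sample titles and the overall design gave the groups, whereas the attached descriptions call the wild-type samples Bcl11bm/m and the Bcl11bfl/fl:Cd4-Cre samples wild-type.

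Bcl11b is a zinc finger transcription factor of the T lineage that recruits NuRD and has also been found with BAF. NuRD couples a Chd remodelling ATPase to the histone deacetylases Hdac1 and Hdac2. BAF and PBAF slide or evict nucleosomes with Smarca2 or Smarca4 as the ATPase. PRC2 methylates histone H3 through Ezh1 or Ezh2, and PRC1 ubiquitinates histone H2A through Ring1 or Rnf2. Dnmt1 copies DNA methylation after replication, Dnmt3a and Dnmt3b place it anew, and the TET enzymes oxidize methylcytosine. DP thymocytes include dividing blasts and small resting cells, and several of these genes are known to be expressed more in dividing cells.

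Values are FPKM (fragments scaled by transcript length and by library size), which allow levels to be set beside each other per length. Differences are in log2(FPKM + 1) with the standard error of the fit, from limma, adjusted over the 10780 features that averaged 1 FPKM or more. The term called denotes an adjusted p-value under 0.05. Of the 52 genes, 51 passed this filter, and the exception was Smarcd3. The labels do not say which libraries came from separate mice, so the p-values measure the spread between these libraries. An estimate from the steps of low FPKM values gave 3980000 to 6920000 fragments for wild-type, 2730000 to 4220000 fragments for Bcl11bm/m and 10960000 to 45650000 fragments for Bcl11bfl/fl:Cd4-Cre, so depth differs with genotype.

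The targeted gene, Bcl11b, stood at 132, 286, 292, 158 and 223 FPKM in the 5 wild-type libraries, 429.9, 434 and 482 FPKM in Bcl11bm/m and, in Bcl11bfl/fl:Cd4-Cre, 127, 139.9, 136 and 115 FPKM. A level over the whole gene does not check the loss of a final zinc finger, and Bcl11bm/m libraries lay above wild-type. The Bcl11bfl/fl:Cd4-Cre libraries overlapped the lowest wild-type library (−0.68 ± 0.24, limma adjusted p = 0.0828), so transcripts of the gene were still counted. DP markers were present in every group, since the 10 listed (Cd4, Cd8a, Rag1 and Rag2 among them) summed to 5098 to 6802 FPKM in wild-type, 3760 to 4284 FPKM in Bcl11bm/m and 3531 to 5602 FPKM in Bcl11bfl/fl:Cd4-Cre. Of these, 6 were called lower in Bcl11bm/m and 1 in Bcl11bfl/fl:Cd4-Cre. The 14 proliferation genes were lower in both mutants, with 10 called in Bcl11bm/m and 12 in Bcl11bfl/fl:Cd4-Cre. Among 6 genes of mature thymocytes, 4 were called higher in Bcl11bm/m, and 3 higher and 1 lower in Bcl11bfl/fl:Cd4-Cre. The 6 myeloid genes summed to 5.84 to 12.9 FPKM in wild-type, 16.9 to 65.3 FPKM in Bcl11bm/m with replicate 1 highest, and 0.994 to 5.68 FPKM in Bcl11bfl/fl:Cd4-Cre. Of the 6, Tyrobp and Mpeg1 were called higher in Bcl11bm/m, with means of 1.3 FPKM in wild-type and 14.3 FPKM in Bcl11bm/m for Tyrobp (2.71 ± 0.33, limma adjusted p = 0.0011) and of 0.711 and 2.74 FPKM for Mpeg1 (1.08 ± 0.26, limma adjusted p = 0.0226). Itgam lay the other way, with means of 2.59 and 0.653 FPKM (−0.97 ± 0.40, limma adjusted p = 0.14), and Lyz2 had 5.38 and 18.05 FPKM with overlap (1.25 ± 0.55, limma adjusted p = 0.17). Csf1r, below the filter, had 0.267 and 1.04 FPKM without overlap, and the monocyte gene Cd14 averaged 0.0387, 0.0624 and 0 FPKM in the 3 groups. In Bcl11bfl/fl:Cd4-Cre 2 of the 6, Lyz2 and Mpeg1, were called lower. The 5 B cell genes summed to 12.9 to 21.1 FPKM in wild-type, 7.38 to 35.7 FPKM in Bcl11bm/m, again with replicate 1 highest, and 11.3 to 27.5 FPKM in Bcl11bfl/fl:Cd4-Cre, with the defining gene Pax5 at 0 in every wild-type library and averaging 0.202 and 0.2 FPKM in the mutants. Of the 5, Cd79a was called higher in Bcl11bfl/fl:Cd4-Cre (1.02 ± 0.25, limma adjusted p = 0.0237). The 5 erythroid genes summed to at most 33.9, 29.7 and 5.06 FPKM in the same order of groups, and the 5 stromal genes reached at most 4.30 FPKM in sum in all 12 libraries. Epcam, the stromal gene that passed the filter, was called lower in both mutants without overlap, at means of 3.04 FPKM in wild-type, 0.303 FPKM in Bcl11bm/m (−1.61 ± 0.19, limma adjusted p = 0.00092) and 0.786 FPKM in Bcl11bfl/fl:Cd4-Cre (−1.18 ± 0.21, limma adjusted p = 0.00814). The part of these cell types, of RNA amount and of depth in the results below was not tested, except where a value is given. In bulk RNA, fewer cells of a type and less RNA per cell cannot be told apart.

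Nearly the whole set was expressed in these thymocytes. Of the 52 genes, 50 were above 1 FPKM in all 12 libraries and 43 above 10 FPKM, and the median of their wild-type means was 38.4 FPKM. For 45 of them the wild-type mean lay in the upper part of the features tested, above the median. The highest was Smarcd2, a BAF core subunit, with 169.9, 207, 238, 299 and 227 FPKM in the 5 wild-type libraries. The other genes with a wild-type mean above 100 FPKM were the NuRD deacetylase Hdac1 at 159.9 ± 30.3 (SD, n = 5), the NuRD subunit Mta2 at 141 ± 14.6, the NuRD ATPase Chd4 at 140.2 ± 15.8, the methyl-CpG binding protein Mbd2 at 118 ± 11.99 and the BAF ATPase Smarca4 at 113 ± 25.8 FPKM. These 5 lay close together, and the ranges of neighbours in this order overlapped. At the lower end were Smarcd3, a BAF subunit of muscle, at 0.74 ± 0.295 FPKM and Dnmt3b at 0.605 ± 0.222 FPKM, followed by Tet1 at 3.02 ± 1.06 and Tet2 at 3.38 ± 1.01 FPKM. Smarcd3 stayed low in the mutants, at 0.899 ± 0.738 FPKM in Bcl11bm/m and 0.995 ± 0.344 FPKM in Bcl11bfl/fl:Cd4-Cre, with all 3 groups overlapping.

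**Figure D1:**
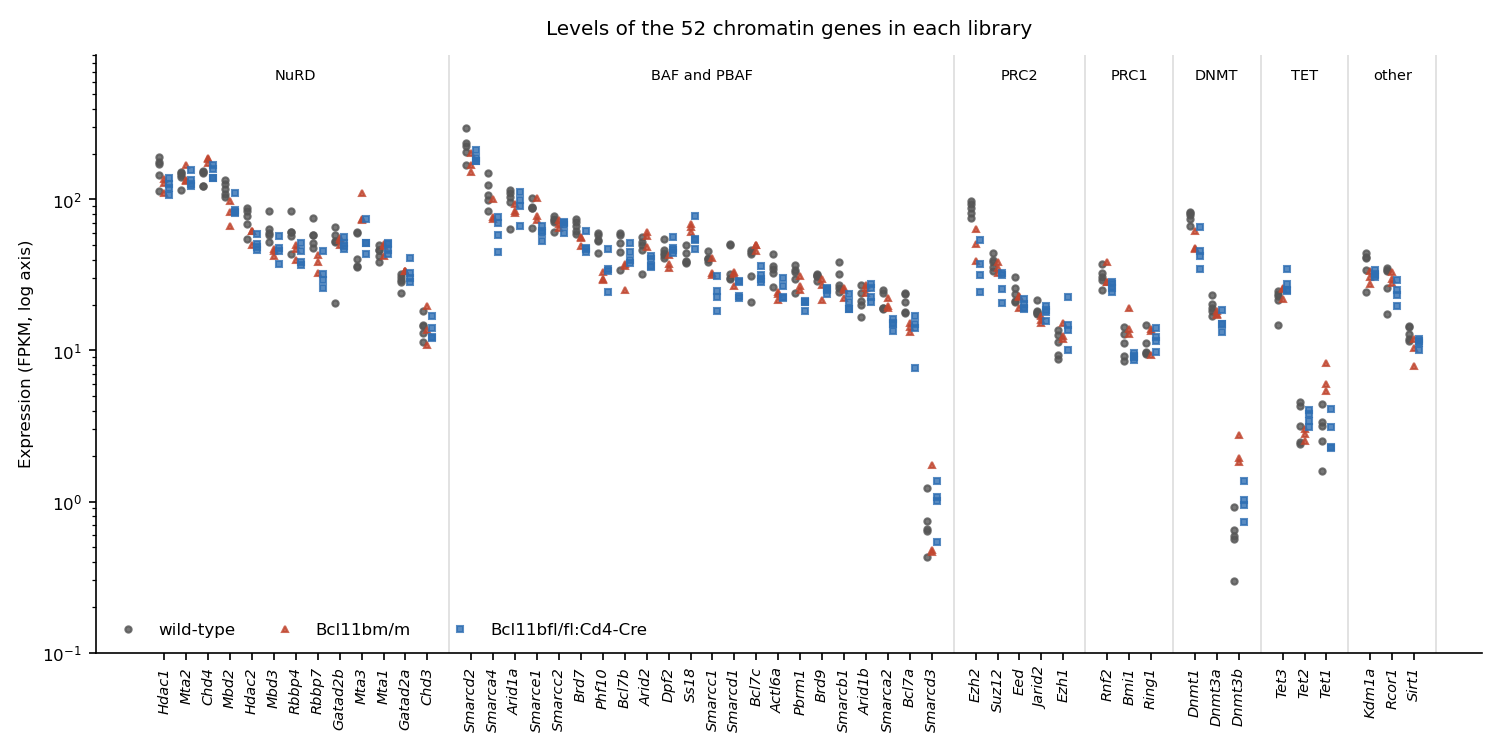
Expression of the 52 genes in each of the 12 libraries, in FPKM on a log axis, ordered within each complex by the wild-type mean (circles, wild-type, n = 5; triangles, Bcl11bm/m, n = 3; squares, Bcl11bfl/fl:Cd4-Cre, n = 4). Most points lie between 10 and 300 FPKM, and Smarcd3, Dnmt3b, Tet1 and Tet2 lie below 10 FPKM in all libraries.

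In Bcl11bm/m against wild-type, 4 of the 51 genes tested were called higher (Mta3, Ss18, Dnmt3b and Tet1), beside 9.92% of all features, and 7 were called lower (Ezh2, Dnmt1, Rbbp7, Phf10, Mbd2, Actl6a and Bcl7a), beside 7.39% of all features. The groups did not overlap for 16 of the 51 genes, beside 25.4% of all features. Their median difference was −0.17, with 32 genes lower and 19 higher in mean, and the median over all features was −0.02. In Bcl11bfl/fl:Cd4-Cre against wild-type, 10 genes were called lower (Ezh2, Dnmt1, Rbbp7, Phf10, Hdac2, Smarca2, Smarca4, Smarcc1, Smarce1 and Pbrm1), beside 9.86% of all features. None was called higher by limma, beside 4.65% of all features. At an unadjusted limma p under 0.05 there were 2 higher and 21 lower, beside 3296 of all 10780 features in either direction. The groups did not overlap for 13 of the 51 genes, beside 16.1% of all features. The median difference was −0.24, with 38 genes lower and 13 higher in mean, and that of all features was −0.09. With the pseudocount of 1, which compresses low genes, Ezh2 in Bcl11bfl/fl:Cd4-Cre was the only difference over 1 in size among the 51 genes and 3 comparisons. The ratio of means was 3.57 for Dnmt3b and 2.18 for Tet1 in Bcl11bm/m against wild-type, where a pseudocount of 0.1 gave differences of 1.72 and 1.15, and it was 2.13 and 2.24 between the mutants. The comparisons of both mutants share the wild-type libraries and are therefore set side by side and not correlated.

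These counts depended on single libraries. In Bcl11bm/m against wild-type, leaving out wild-type replicate 2, 3 or 5 turned the 11 called genes into 7, 7 and 6, and leaving out Bcl11bm/m replicate 1, 2 or 3 turned them into 5, 3 and 5. For Bcl11bfl/fl:Cd4-Cre, leaving out wild-type replicate 1, 2 or 5 turned the 10 called genes into 21, 5 and 4, and leaving out replicate 1, 3 or 4 of the mutant turned them into 3, 2 and 4. No called gene changed direction in any of these fits. The counts over all features, 1866 and 1564 with every library kept, also moved in these fits, over ranges given in the last section. Rescaling each library by the median ratio to the others left the 11 calls in Bcl11bm/m and added 6 lower ones, so that 4 were higher and 13 lower. Over all features in Bcl11bm/m it turned 1069 higher and 797 lower calls into 1263 higher and 1137 lower. The same rescaling turned the calls over all features in Bcl11bfl/fl:Cd4-Cre from 501 higher and 1063 lower to 833 higher and 964 lower, and those of the 51 genes to 1 higher (Ss18) and 9 lower.

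**Figure D2:**
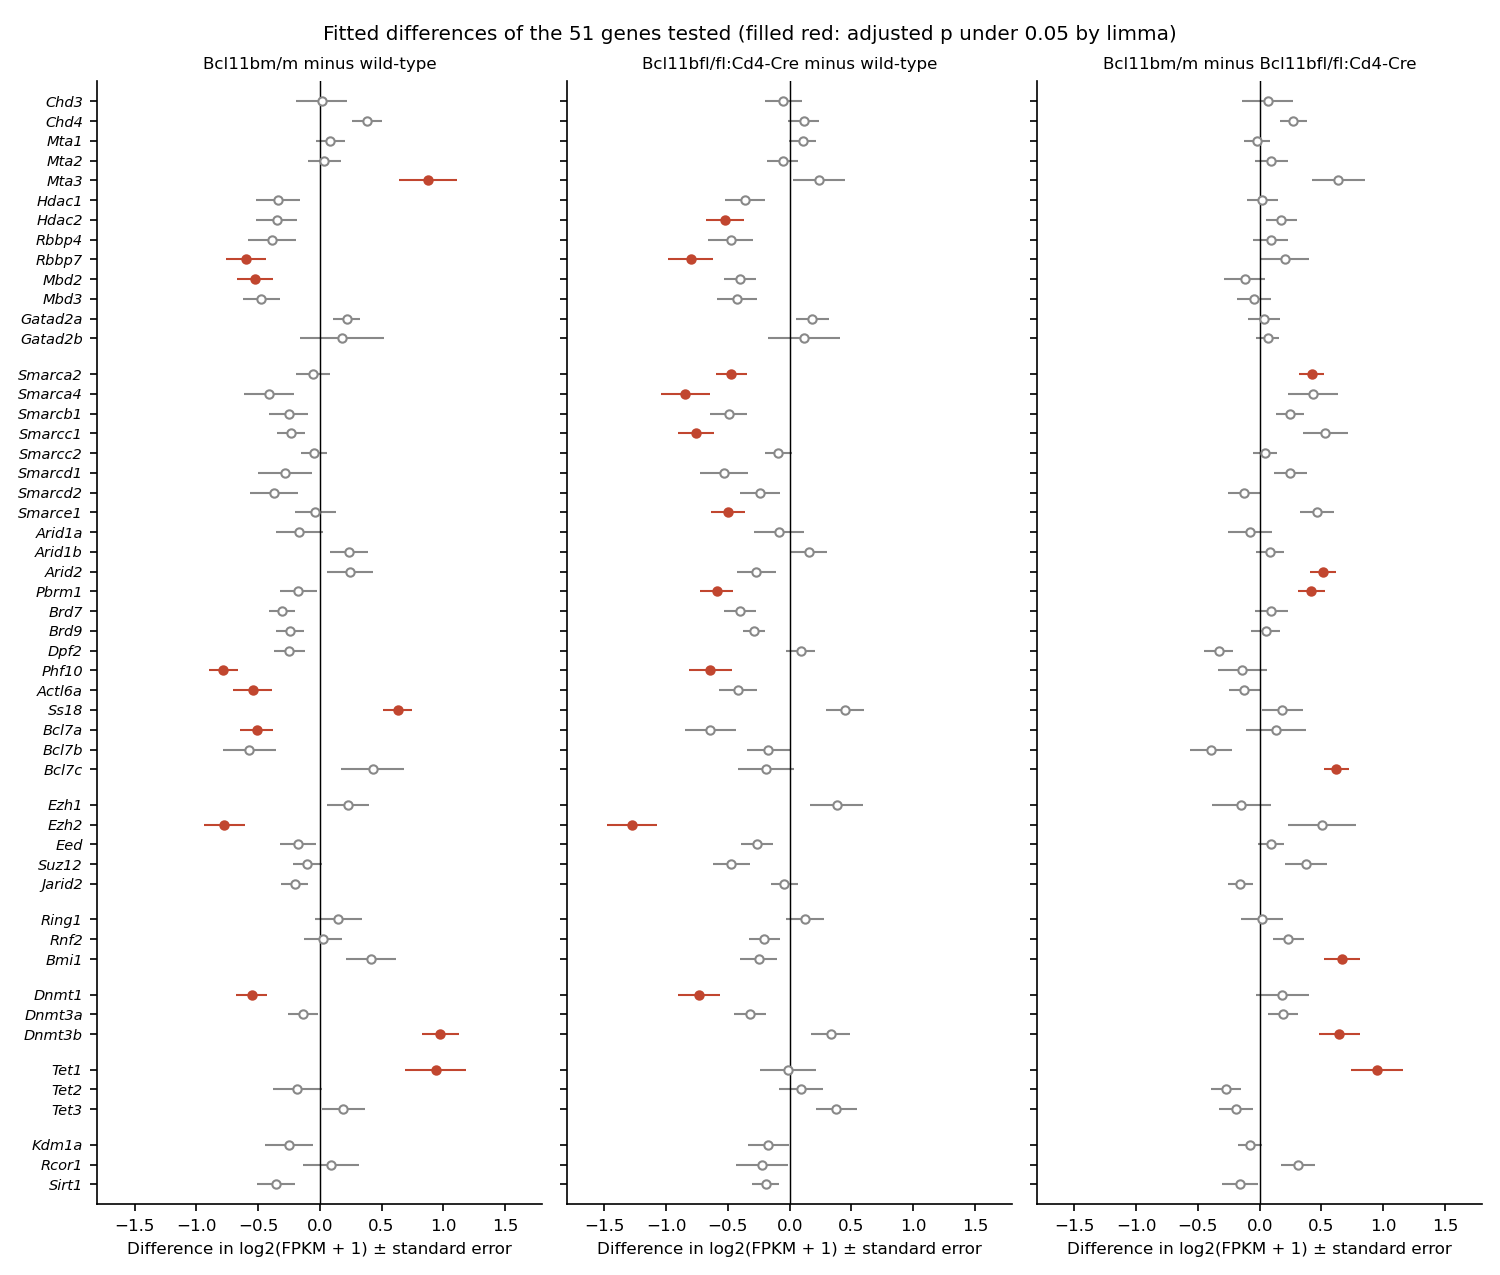
Fitted difference in log2(FPKM + 1) with its standard error for the 51 genes tested, by complex from NuRD at the top to Kdm1a, Rcor1 and Sirt1 at the bottom, in Bcl11bm/m minus wild-type (left), Bcl11bfl/fl:Cd4-Cre minus wild-type (middle) and Bcl11bm/m minus Bcl11bfl/fl:Cd4-Cre (right). Filled red points passed an adjusted p-value of 0.05, which were 11, 10 and 7 genes from left to right.

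Called lower in both mutants were 4 of the 51 genes, Ezh2, Dnmt1, Rbbp7 and Phf10, beside 3.44% of all features, in comparisons that share the wild-type libraries. Ezh2, the main H3 methyltransferase of PRC2, lies on chromosome 6 from 47480273 to 47545340 (NCBIM37, minus strand). Its level was 88.2, 93.1, 75.7, 97.8 and 80.9 FPKM in the 5 wild-type libraries, 38.9, 51.1 and 64.2 FPKM in Bcl11bm/m, while the Bcl11bfl/fl:Cd4-Cre libraries had 37.5, 53.7, 31.5 and 24.2 FPKM. Every mutant library was below every wild-type library. The mean was 1.7-fold lower in Bcl11bm/m (−0.77 ± 0.17, limma adjusted p = 0.0149) and 2.37-fold lower in Bcl11bfl/fl:Cd4-Cre (−1.28 ± 0.20, limma adjusted p = 0.00538). The call in Bcl11bfl/fl:Cd4-Cre held with each library left out, and that in Bcl11bm/m was lost without Bcl11bm/m replicate 2 (limma adjusted p = 0.0574).

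Dnmt1, the maintenance DNA methyltransferase, lies on chromosome 9 from 20711650 to 20757317 (minus strand). It had 74.1, 81.2, 66.9, 79.4 and 82.8 FPKM in wild-type, 47.3, 47.9 and 61.9 FPKM in Bcl11bm/m and, in Bcl11bfl/fl:Cd4-Cre, 42.2, 65.5, 45.7 and 34.5 FPKM. The mutants again lay below all wild-type libraries, although Bcl11bfl/fl:Cd4-Cre replicate 2 came close to the lowest of them. The difference was −0.55 ± 0.13, limma adjusted p = 0.0186 in Bcl11bm/m, and this call was lost without Bcl11bm/m replicate 1 or 2 (limma adjusted p = 0.0748 to 0.0893), and under quantile normalization (−0.46, limma adjusted p = 0.065). It was −0.73 ± 0.17, limma adjusted p = 0.02 in Bcl11bfl/fl:Cd4-Cre, where the call was lost without wild-type replicate 2 or 5 or Bcl11bfl/fl:Cd4-Cre replicate 1, 3 or 4 (limma adjusted p = 0.0504 to 0.0667).

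Rbbp7, a histone chaperone shared by NuRD and PRC2, lies on chromosome X from 159198334 to 159217024 (plus strand). Its libraries had 51.2, 57.8, 47.6, 75.7 and 58.5 FPKM in wild-type, 32.7, 38.4 and 42.6 FPKM in Bcl11bm/m, while the Bcl11bfl/fl:Cd4-Cre libraries had 29.3, 45.6, 32.3 and 25.8 FPKM, without overlap of either mutant with wild-type. The difference was −0.60 ± 0.16, limma adjusted p = 0.0381 in Bcl11bm/m, and the call was lost without wild-type replicate 2 or 5 or Bcl11bm/m replicate 1, 2 or 3 (limma adjusted p = 0.0596 to 0.137). It was −0.80 ± 0.18, limma adjusted p = 0.019 in Bcl11bfl/fl:Cd4-Cre, and the call was lost without Bcl11bfl/fl:Cd4-Cre replicate 1, 3 or 4 (limma adjusted p = 0.0534 to 0.0665).

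Phf10, a subunit particular to PBAF, lies on chromosome 17 from 15081999 to 15129820 (minus strand). It had 53.04, 54.02, 44.2, 59.6 and 58.3 FPKM in wild-type, 29.3, 29.9 and 32.96 FPKM in Bcl11bm/m and, in Bcl11bfl/fl:Cd4-Cre, 34.4, 47.03, 24.3 and 33.5 FPKM. The Bcl11bm/m libraries lay together below wild-type (−0.78 ± 0.12, limma adjusted p = 0.00306), and this call held with each library left out. The second Bcl11bfl/fl:Cd4-Cre library reached into the wild-type range (−0.64 ± 0.18, limma adjusted p = 0.0363), and the call was lost without wild-type replicate 2, 4 or 5 or Bcl11bfl/fl:Cd4-Cre replicate 1, 3 or 4 (limma adjusted p = 0.0689 to 0.0914). It was also lost there under median-ratio scaling, under quantile normalization and without the filter on low values.

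Promoter sequences are shown for Ezh2, Dnmt1 and Rbbp7, which were called lower in both mutants, to set their E2F-type words side by side. E2F factors are known to act on genes of dividing cells. They are from RefSeq (GRCm38.p6), run 5′ to 3′ from 250 bases before to 50 bases after a transcript start, the nearest in the table to the annotated 5′ end, and were placed on NCBIM37 by exact match. Capitals mark the words TTTCCCGC, TTTGGCGC, TTTCGCGC and TTTGCCGC, searched on both strands. The Ezh2 promoter is chr6:47544980-47545279, the Dnmt1 promoter is chr9:20757374-20757673 (both minus strand) and the Rbbp7 promoter is chrX:159198054-159198353 (plus strand).
Ezh2: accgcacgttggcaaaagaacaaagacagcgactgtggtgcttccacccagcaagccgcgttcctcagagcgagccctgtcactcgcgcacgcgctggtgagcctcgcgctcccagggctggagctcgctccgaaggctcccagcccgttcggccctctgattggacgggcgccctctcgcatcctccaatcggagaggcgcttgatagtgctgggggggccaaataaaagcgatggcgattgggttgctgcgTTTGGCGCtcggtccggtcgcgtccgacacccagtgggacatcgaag
Dnmt1: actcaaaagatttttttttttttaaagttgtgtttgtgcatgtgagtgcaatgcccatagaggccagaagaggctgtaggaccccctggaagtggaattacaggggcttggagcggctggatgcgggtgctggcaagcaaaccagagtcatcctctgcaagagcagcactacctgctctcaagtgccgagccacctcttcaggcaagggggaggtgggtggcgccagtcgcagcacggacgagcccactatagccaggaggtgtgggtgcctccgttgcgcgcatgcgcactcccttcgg
Rbbp7: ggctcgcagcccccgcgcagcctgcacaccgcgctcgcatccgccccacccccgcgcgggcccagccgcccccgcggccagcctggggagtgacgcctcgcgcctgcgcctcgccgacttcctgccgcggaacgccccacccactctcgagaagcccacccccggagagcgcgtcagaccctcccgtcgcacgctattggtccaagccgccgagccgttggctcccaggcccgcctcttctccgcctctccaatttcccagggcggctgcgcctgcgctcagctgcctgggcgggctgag
Ezh2 held TTTGGCGC 3 bases past the start. The printed Dnmt1 window held none. Of the other RefSeq starts of Dnmt1, the window chr9:20757018-20757317 held TTTCGCGC on the reverse strand and TTTGGCGC on the forward strand, and the window chr9:20764283-20764582 held none. Rbbp7 held none, nor did Phf10, whose promoter did not match NCBIM37 exactly and is not printed. Taking 1 start per gene by the same rule, 4 of the 44 genes with a promoter in the table held such a word (9.1%), against 744 of all 32851 promoters (2.3%). The count over all promoters takes every start, so some genes enter it more than once. The Runx words ACCACA and ACCGCA, also searched on both strands and overlapping no E2F word in these windows, were held by 11 of 44 (25.0%) and by 22.4% of all promoters. The E2F word was present in 1 of the 10 promoters of genes called lower in a mutant and in 3 of the 34 of the other genes (8.8%). A match describes letters and not a bound site.

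Proliferation genes were lower in both mutants, as these 4 genes were by their selection. The summed level of Mki67, Top2a, Pcna and 11 further genes was 1029 to 1413 FPKM in wild-type. Bcl11bm/m replicates 1 to 3 summed to 465, 494 and 809 FPKM, and Bcl11bfl/fl:Cd4-Cre replicates 1 to 4 to 384, 716, 439 and 255 FPKM. Within Bcl11bm/m the libraries had the same order for this sum as for Ezh2, Dnmt1, Rbbp7 and Phf10, with replicate 3 highest, an order shared by 18 of the 52 genes. Within wild-type none of the 52 genes had the order of the sum, and Ezh2, Rbbp7 and Phf10 but not Dnmt1 were highest in the library with the highest sum. Within Bcl11bfl/fl:Cd4-Cre replicate 2 was highest for the sum and for all 4 genes, and the whole order was shared by Dnmt1 and Rbbp7, among 5 of the 52 genes. The median difference of the 14 genes was −1.10 in Bcl11bm/m and −1.79 in Bcl11bfl/fl:Cd4-Cre, larger in size than that of any of the 4 genes in the same comparison. The part of cell division in their levels was not tested.

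**Figure D3:**
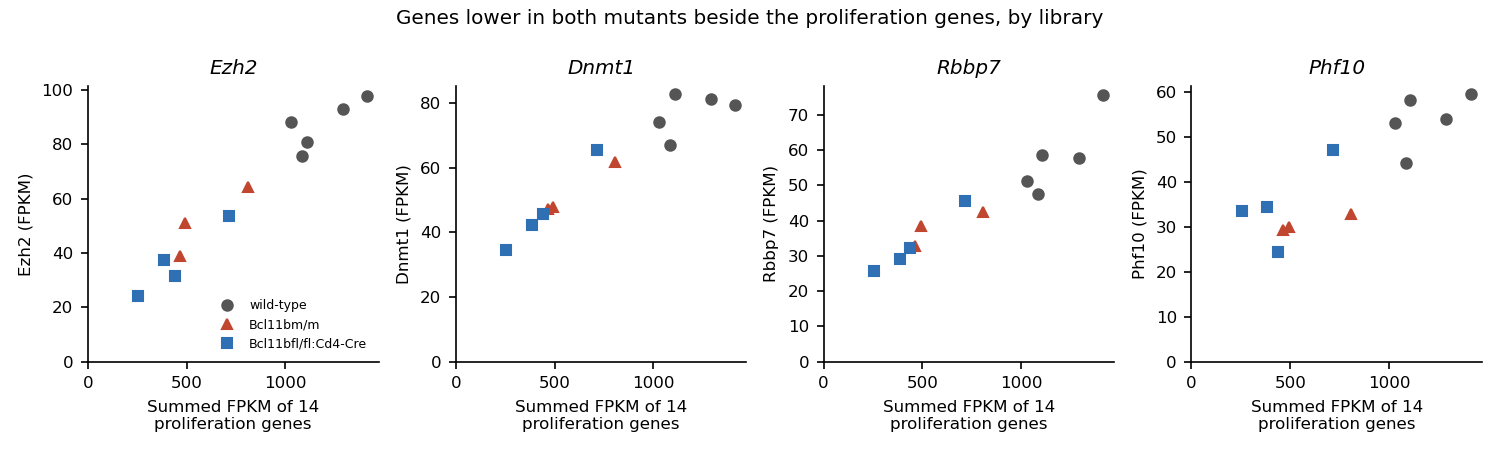
Level of Ezh2, Dnmt1, Rbbp7 and Phf10 (FPKM) against the summed FPKM of 14 proliferation genes in each of the 12 libraries. Wild-type libraries (circles) lie to the upper right at sums of 1029 FPKM and more, and both mutants (triangles, Bcl11bm/m; squares, Bcl11bfl/fl:Cd4-Cre) lie at 809 FPKM and less.

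Of the 13 NuRD genes, Mta3 was called higher and Rbbp7 and Mbd2 lower in Bcl11bm/m, beside 9.92% of all features higher and 7.39% lower. Hdac2 and Rbbp7 were called lower in Bcl11bfl/fl:Cd4-Cre, beside 9.86% of all features. The medians of the 13 were 0.01 and −0.06, and both changed sign under another scaling (−0.01 with quantile normalization in Bcl11bm/m, 0.05 with median-ratio scaling in Bcl11bfl/fl:Cd4-Cre). Mta3, an MTA scaffold of the complex, had 36.5, 61.3, 59.7, 35.8 and 40.6 FPKM in wild-type, 109.8, 74.4 and 73.2 FPKM in Bcl11bm/m, while the Bcl11bfl/fl:Cd4-Cre libraries had 43.3, 51.3, 73.7 and 51.2 FPKM. All Bcl11bm/m libraries exceeded wild-type, with replicate 1 well above the others, and Bcl11bfl/fl:Cd4-Cre overlapped both. It was 1.83-fold higher in mean in Bcl11bm/m (0.87 ± 0.24, limma adjusted p = 0.0364), and the call was lost without wild-type replicate 1, 4 or 5 or Bcl11bm/m replicate 1, 2 or 3 (limma adjusted p = 0.0538 to 0.131). Library quality weights lowered it to 0.52 (limma adjusted p = 0.053). Its difference in Bcl11bfl/fl:Cd4-Cre was 0.24 ± 0.21, limma adjusted p = 0.489.

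Mbd2, which binds methylated DNA and brings NuRD to it, had 104, 109, 117, 134 and 126 FPKM in wild-type, 98.3, 66.5 and 83.01 FPKM in Bcl11bm/m and, in Bcl11bfl/fl:Cd4-Cre, 80.9, 109.9, 82.6 and 85.04 FPKM. Bcl11bm/m lay below wild-type throughout, while Bcl11bfl/fl:Cd4-Cre replicate 2 lay within it. The difference was −0.52 ± 0.15, limma adjusted p = 0.0434 in Bcl11bm/m, and the call was lost without wild-type replicate 2, 3, 4 or 5 or Bcl11bm/m replicate 2 or 3 (limma adjusted p = 0.0695 to 0.172). For Bcl11bfl/fl:Cd4-Cre it was −0.40 ± 0.13, limma adjusted p = 0.0668. Its alternative partner Mbd3, the other MBD subunit of NuRD, had lower values in both mutants that did not pass the test (−0.47 ± 0.15, limma adjusted p = 0.0654 in Bcl11bm/m and −0.43 ± 0.16, limma adjusted p = 0.106 in Bcl11bfl/fl:Cd4-Cre).

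Hdac2, a class I deacetylase, had 54.6, 83.3, 77.9, 87.8 and 69.01 FPKM in wild-type, 61.5, 50.04 and 61.6 FPKM in Bcl11bm/m, while the Bcl11bfl/fl:Cd4-Cre libraries had 50.5, 59.4, 48.1 and 46.1 FPKM. Wild-type replicate 1 lay among the mutants and the remaining wild-type libraries above them. The difference in Bcl11bfl/fl:Cd4-Cre was −0.52 ± 0.15, limma adjusted p = 0.045, and the call was lost without wild-type replicate 2, 3, 4 or 5 or Bcl11bfl/fl:Cd4-Cre replicate 1, 3 or 4 (limma adjusted p = 0.079 to 0.121). For Hdac1 the difference was −0.34 ± 0.18, limma adjusted p = 0.25 in Bcl11bm/m and −0.36 ± 0.16, limma adjusted p = 0.167 in Bcl11bfl/fl:Cd4-Cre. The chaperone Rbbp4 had −0.39 ± 0.19, limma adjusted p = 0.219 and −0.48 ± 0.18, limma adjusted p = 0.104, respectively. Chd4, the main NuRD ATPase, was above wild-type in all 3 Bcl11bm/m libraries, at 184, 174 and 189 FPKM against 123, 152, 154, 123 and 149 FPKM, without passing the test (0.38 ± 0.12, limma adjusted p = 0.065). Mta1, Mta2, Chd3, Gatad2a and Gatad2b, the remaining scaffold, ATPase and bridging subunits, had differences between −0.06 and 0.22 in both mutants and were not called. Gatad2b had a low value in wild-type replicate 4, at 20.5 FPKM against 52.5 to 65.7 FPKM in the other wild-type libraries.

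BAF and PBAF genes were lower in mean more often than not, in 17 of the 21 tested in Bcl11bm/m, beside 52.3% of all features, and 18 of 21 in Bcl11bfl/fl:Cd4-Cre, beside 60.3%. In Bcl11bm/m 1 was called higher (Ss18), beside 9.92% of all features, and 3 lower (Phf10, Actl6a and Bcl7a), beside 7.39%, with a median of −0.24. In Bcl11bfl/fl:Cd4-Cre 6 were called lower, beside 9.86% of all features, and none higher, beside 4.65%, with a median of −0.40. At an unadjusted limma p under 0.05 there were 1 higher and 12 lower, beside 3296 of all 10780 features in either direction. The sign of both medians held under both other scalings. Smarca4 (Brg1), the predominant ATPase, had 83.9, 106, 125, 99.1 and 151 FPKM in wild-type, 101, 73.7 and 76.5 FPKM in Bcl11bm/m and, in Bcl11bfl/fl:Cd4-Cre, 58.4, 76.5, 45.1 and 69.9 FPKM. Bcl11bfl/fl:Cd4-Cre lay below all wild-type libraries, and Bcl11bm/m overlapped both groups. It was 1.81-fold lower in mean in Bcl11bfl/fl:Cd4-Cre (−0.84 ± 0.20, limma adjusted p = 0.0223), and the call was lost without wild-type replicate 3 or 5 or Bcl11bfl/fl:Cd4-Cre replicate 1 or 3 (limma adjusted p = 0.0511 to 0.07). In Bcl11bm/m the difference was −0.41 ± 0.20, limma adjusted p = 0.21.

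Smarca2 (Brm), the alternative ATPase, had 19.1, 19.1, 18.8, 25.2 and 24.2 FPKM in wild-type, 22.2, 18.99 and 19.8 FPKM in Bcl11bm/m, while the Bcl11bfl/fl:Cd4-Cre libraries had 16.2, 13.4, 15.2 and 15.04 FPKM. Only the Bcl11bfl/fl:Cd4-Cre libraries stood apart, below all others. Their difference from wild-type was −0.47 ± 0.12, limma adjusted p = 0.0328, and the call was lost without wild-type replicate 2, 4 or 5 or Bcl11bfl/fl:Cd4-Cre replicate 1, 2, 3 or 4 (limma adjusted p = 0.0515 to 0.079). Smarcc1 (BAF155), a core scaffold, had 40.4, 40.1, 38.3, 40.7 and 45.8 FPKM in wild-type, 32.8, 31.4 and 40.8 FPKM in Bcl11bm/m and, in Bcl11bfl/fl:Cd4-Cre, 22.4, 31.3, 24.7 and 18.3 FPKM. The latter was 1.7-fold lower in mean (−0.76 ± 0.14, limma adjusted p = 0.00957), and the call held with each library left out. In Bcl11bm/m the difference was −0.23 ± 0.11, limma adjusted p = 0.219, with overlap.

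Smarce1 (BAF57), a DNA-binding core subunit, had 65.1, 88.2, 87.7, 102 and 88.9 FPKM in wild-type and, in Bcl11bfl/fl:Cd4-Cre, 52.8, 66.8, 62.1 and 59.9 FPKM, overlapping at wild-type replicate 1 (−0.50 ± 0.14, limma adjusted p = 0.0402). Its call was lost without wild-type replicate 2, 3, 4 or 5 or Bcl11bfl/fl:Cd4-Cre replicate 1, 3 or 4 (limma adjusted p = 0.067 to 0.113), and in Bcl11bm/m the values were 102, 72.9 and 78.3 FPKM, within the wild-type range. Pbrm1 (BAF180), the bromodomain subunit of PBAF, had 29.6, 33.03, 33.9, 24.1 and 36.7 FPKM in wild-type, 25.1, 26.7 and 31.1 FPKM in Bcl11bm/m, while the Bcl11bfl/fl:Cd4-Cre libraries had 21.4, 21.00, 18.3 and 20.8 FPKM. Bcl11bfl/fl:Cd4-Cre was below both other groups without overlap. The difference from wild-type was −0.59 ± 0.13, limma adjusted p = 0.0174, and the call was lost without Bcl11bfl/fl:Cd4-Cre replicate 3 (limma adjusted p = 0.0548), as well as under median-ratio scaling.

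Ss18, a BAF subunit fused to SSX in synovial sarcoma, was higher in Bcl11bm/m. It had 38.04, 49.7, 44.01, 38.4 and 39.3 FPKM in wild-type, 65.5, 60.7 and 69.2 FPKM in Bcl11bm/m and, in Bcl11bfl/fl:Cd4-Cre, 53.99, 54.6, 77.3 and 46.7 FPKM. The Bcl11bm/m libraries did not overlap wild-type (0.63 ± 0.12, limma adjusted p = 0.00782), and the call held with each library left out. The difference did not pass the test in Bcl11bfl/fl:Cd4-Cre (0.45 ± 0.15, limma adjusted p = 0.0811) but did under median-ratio scaling and quantile normalization.

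Actl6a (BAF53a), the actin-like subunit of dividing cells, had 26.2, 34.8, 36.04, 43.8 and 32.8 FPKM in wild-type, 23.6, 21.7 and 24.3 FPKM in Bcl11bm/m, while the Bcl11bfl/fl:Cd4-Cre libraries had 22.8, 30.4, 26.6 and 22.4 FPKM. Only Bcl11bm/m was without overlap with wild-type (−0.54 ± 0.16, limma adjusted p = 0.0456), and the call was lost without wild-type replicate 2, 3, 4 or 5 or Bcl11bm/m replicate 1, 2 or 3 (limma adjusted p = 0.0529 to 0.164). Bcl7a, a small accessory subunit, had 17.6, 18.1, 20.9, 23.5 and 23.9 FPKM in wild-type, 15.1, 13.2 and 14.3 FPKM in Bcl11bm/m and, in Bcl11bfl/fl:Cd4-Cre, 13.99, 15.00, 7.63 and 16.9 FPKM. Neither mutant overlapped wild-type, but the difference passed the test in Bcl11bm/m (−0.51 ± 0.14, limma adjusted p = 0.0342) and not in Bcl11bfl/fl:Cd4-Cre (−0.64 ± 0.21, limma adjusted p = 0.0656), where replicate 3 was far lower than the rest. The call in Bcl11bm/m was lost without wild-type replicate 3, 4 or 5 or Bcl11bm/m replicate 1, 2 or 3 (limma adjusted p = 0.0558 to 0.141).

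The other BAF genes were not called against wild-type. The core subunit Smarcb1 (−0.49 ± 0.15, limma adjusted p = 0.0509) and the bromodomain subunit Brd9 (−0.29 ± 0.09, limma adjusted p = 0.0512) lay just outside the threshold in Bcl11bfl/fl:Cd4-Cre, both without overlap with wild-type. Smarcd1 had 30.1, 31.9, 29.7, 49.8 and 50.5 FPKM in wild-type and, in Bcl11bfl/fl:Cd4-Cre, 22.97, 28.5, 22.3 and 28.98 FPKM, also without overlap (−0.53 ± 0.19, limma adjusted p = 0.0961). Brd7, the PBAF bromodomain subunit, was below wild-type in all 3 Bcl11bm/m libraries (−0.31 ± 0.11, limma adjusted p = 0.0912). Arid1a and Arid1b, the DNA-binding subunits that define BAF, had differences between −0.17 and 0.24 in both mutants, and the core scaffold Smarcc2 had −0.05 and −0.09. Arid2, which defines PBAF, had 0.24 in Bcl11bm/m and −0.27 in Bcl11bfl/fl:Cd4-Cre. Smarcd2, Dpf2, Bcl7b and Bcl7c had differences from −0.57 to 0.43.

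**Figure D4:**
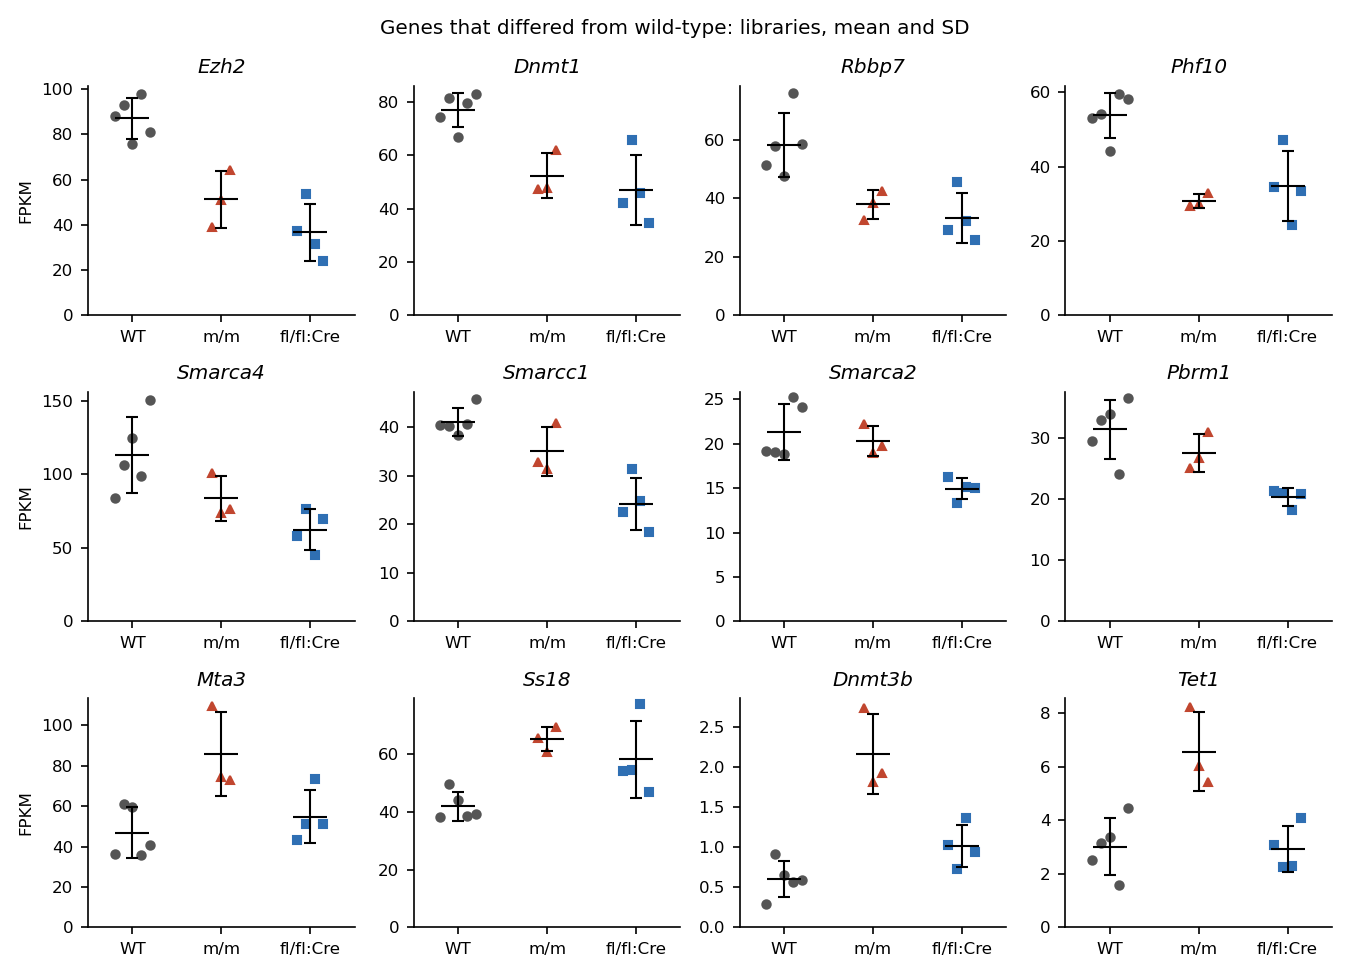
FPKM of 12 genes called in at least 1 mutant against wild-type, in each library (WT, wild-type, n = 5; m/m, Bcl11bm/m, n = 3; fl/fl:Cre, Bcl11bfl/fl:Cd4-Cre, n = 4), with mean (bar) and SD (whiskers) on axes that start at 0. Ezh2, Dnmt1 and Rbbp7 lie below wild-type in every mutant library, whereas Mta3, Ss18, Dnmt3b and Tet1 lie above wild-type in every Bcl11bm/m library.

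Within PRC2 only the catalytic subunit Ezh2 was called, out of 5 genes in each comparison with wild-type, beside 7.39% of all features called lower in Bcl11bm/m and 9.86% in Bcl11bfl/fl:Cd4-Cre. Ezh1, the paralogue found in resting cells, had 8.82, 9.35, 12.7, 13.8 and 11.4 FPKM in wild-type, 15.2, 12.5 and 11.9 FPKM in Bcl11bm/m, while the Bcl11bfl/fl:Cd4-Cre libraries had 13.7, 10.1, 22.5 and 14.7 FPKM, with overlap throughout (0.23 ± 0.17, limma adjusted p = 0.417 and 0.38 ± 0.21, limma adjusted p = 0.261). Suz12, a core subunit needed for methyltransferase activity, had 33.7, 35.8, 39.5, 44.5 and 38.2 FPKM in wild-type, 35.4, 32.8 and 38.7 FPKM in Bcl11bm/m and, in Bcl11bfl/fl:Cd4-Cre, 31.8, 32.6, 25.6 and 20.6 FPKM. The Bcl11bfl/fl:Cd4-Cre libraries lay below wild-type, and the difference did not pass the test (−0.47 ± 0.15, limma adjusted p = 0.0608). Eed, the third core subunit, had −0.17 and −0.27, and the accessory subunit Jarid2 had −0.20 and −0.04. The medians of the 5 genes were −0.17 in Bcl11bm/m and −0.27 in Bcl11bfl/fl:Cd4-Cre.

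Of PRC1, limma called none of 3 genes against wild-type in either mutant. None had an unadjusted p under 0.05, beside 3266 of all 10780 features in Bcl11bm/m and 3296 in Bcl11bfl/fl:Cd4-Cre. Of all features, 9.92% were called higher and 7.39% lower in Bcl11bm/m, and 4.65% and 9.86% in Bcl11bfl/fl:Cd4-Cre. The E3 ligases Ring1 and Rnf2 had differences of 0.15 and 0.03 in Bcl11bm/m and of 0.13 and −0.21 in Bcl11bfl/fl:Cd4-Cre. Bmi1, a PCGF partner of the ligases known from stem cell self-renewal, had 8.51, 11.1, 12.9, 14.4 and 9.26 FPKM in wild-type, 19.2, 12.8 and 13.9 FPKM in Bcl11bm/m, while the Bcl11bfl/fl:Cd4-Cre libraries had 9.06, 8.66, 9.56 and 9.24 FPKM. Wild-type overlapped both mutants, which did not overlap each other.

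Of the DNA methyltransferases, Dnmt1 was called lower in both mutants, Dnmt3b was called higher in Bcl11bm/m, and Dnmt3a was not called against wild-type. The de novo enzyme Dnmt3b had 0.297, 0.919, 0.648, 0.568 and 0.595 FPKM in wild-type, 2.74, 1.81 and 1.93 FPKM in Bcl11bm/m and, in Bcl11bfl/fl:Cd4-Cre, 1.02, 0.732, 1.37 and 0.945 FPKM. All Bcl11bm/m libraries were above the other groups, and Bcl11bfl/fl:Cd4-Cre overlapped wild-type. The ratio of means was 3.57 in Bcl11bm/m (0.98 ± 0.15, limma adjusted p = 0.00333), which the pseudocount of 1 compresses on the log2 scale, and the call held with each library left out. The level was low throughout, an estimated 8.4 fragments in the lowest library, so that counting error is large for single libraries. The Bcl11bfl/fl:Cd4-Cre difference was 0.33 ± 0.16, limma adjusted p = 0.195. Dnmt3a, the main de novo enzyme of haematopoietic cells, had 19.6 ± 2.44 FPKM in wild-type, with differences of −0.13 ± 0.12, limma adjusted p = 0.512 and −0.32 ± 0.13, limma adjusted p = 0.124.

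Among the TET genes, Tet1 was higher in Bcl11bm/m. It had 2.5, 3.14, 3.38, 1.6 and 4.45 FPKM in wild-type, 8.24, 6.04 and 5.41 FPKM in Bcl11bm/m, while the Bcl11bfl/fl:Cd4-Cre libraries had 3.1, 2.26, 2.28 and 4.1 FPKM. Bcl11bm/m lay above both other groups, which overlapped. The ratio of means was 2.18 (0.94 ± 0.24, limma adjusted p = 0.0323), and the call was lost without wild-type replicate 1, 2 or 3 or Bcl11bm/m replicate 1, 2 or 3 (limma adjusted p = 0.051 to 0.118). The difference in Bcl11bfl/fl:Cd4-Cre was −0.01 ± 0.23, limma adjusted p = 0.978. Tet3, the most abundant of the family, had 23.8, 21.6, 22.8, 14.7 and 24.6 FPKM in wild-type and, in Bcl11bfl/fl:Cd4-Cre, 27.4, 25.1, 34.9 and 24.9 FPKM, without overlap but without passing the test (0.38 ± 0.17, limma adjusted p = 0.156). Tet2, known from myeloid and T cell malignancy, had differences of −0.18 and 0.09.

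Of the 4 genes called higher in Bcl11bm/m, Mta3, Dnmt3b and Tet1 were highest in replicate 1 and Ss18 in replicate 3. Replicate 1 had the highest sums of myeloid and B cell genes and the fewest estimated fragments (2730000). It was also the highest of its group for genes not called higher, such as Mbd2 and Smarca4, while replicate 3 was highest for 28 of the 52 genes. Without replicate 1 the differences were 0.69 for Mta3 (limma adjusted p = 0.131), 0.85 for Dnmt3b (limma adjusted p = 0.0118) and 0.79 for Tet1 (limma adjusted p = 0.118). In the 6 mature thymocyte genes, which summed to 85.9 to 139 FPKM in wild-type, Bcl11bm/m had 221 to 335 FPKM and Bcl11bfl/fl:Cd4-Cre 66.1 to 179.7 FPKM. The part of such cells in the higher genes was not tested.

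The H3 demethylase Kdm1a, its CoREST partner Rcor1 and the deacetylase Sirt1 were not called in any comparison by limma. Of all features, 17.3% were called in Bcl11bm/m and 14.5% in Bcl11bfl/fl:Cd4-Cre against wild-type, and 10.2% between the mutants. At an unadjusted limma p under 0.05 there was 1 of these genes, Sirt1 in Bcl11bm/m, beside 3266 of all 10780 features in that comparison. Sirt1 had 14.2, 14.5, 12.9, 11.8 and 11.6 FPKM in wild-type and 7.89, 10.4 and 11.9 FPKM in Bcl11bm/m, with an overlap at the third library (−0.35 ± 0.15, limma adjusted p = 0.159). Kdm1a had 37.05 ± 7.88 FPKM in wild-type and differences of −0.25 and −0.17, and Rcor1 had 29.3 ± 7.59 FPKM and differences of 0.09 and −0.22.

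The mutants were also compared directly, as a call in a single comparison does not show a difference between them. Of the 51 genes, 7 were called, all with Bcl11bm/m above Bcl11bfl/fl:Cd4-Cre, beside 7.63% of all features. None was called lower by limma, beside 2.6% of all features. At an unadjusted limma p under 0.05 there were 11 higher and 1 lower, beside 3134 of all 10780 features in either direction. Groups did not overlap for 14 of the 51 genes, beside 26.7% of all features. The median was 0.09 for the 51 genes and 0.09 for all features. Median-ratio scaling moved the latter to −0.01 and the former to −0.02, and changed the calls over all features from 822 higher and 280 lower to 566 higher and 530 lower. Under it 3 of the 7 calls remained (Bcl7c, Bmi1 and Tet1) and Dpf2, a BAF reader subunit, was called lower. Leaving out Bcl11bfl/fl:Cd4-Cre replicate 1, 2, 3 or 4 turned the 7 called genes into 1, 2, 4 and 2, and leaving out Bcl11bm/m replicate 1, 2 or 3 turned them into 3, 1 and 0. The count over all features, 1102 with every library kept, also moved, over a range given in the last section.

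Bcl7c, a small BAF subunit, differed at 50.1, 45.7 and 50.1 FPKM in Bcl11bm/m against 28.2, 29.9, 31.4 and 36.01 FPKM in Bcl11bfl/fl:Cd4-Cre (0.62 ± 0.10, limma adjusted p = 0.0156). The call was lost without Bcl11bm/m replicate 3 (limma adjusted p = 0.0679) and in 1 fit of all 3 groups (limma adjusted p = 0.121). Wild-type had 20.8, 43.3, 46.6, 45.2 and 31.1 FPKM, overlapping both. For Bmi1 the difference was 0.67 ± 0.14, limma adjusted p = 0.0313, and the call was lost without Bcl11bm/m replicate 2 or 3 or Bcl11bfl/fl:Cd4-Cre replicate 1, 2 or 4 (limma adjusted p = 0.0514 to 0.0867). Tet1 had the largest of the 7 differences (0.95 ± 0.21, limma adjusted p = 0.0328), and its call was lost without Bcl11bm/m replicate 1, 2 or 3 or Bcl11bfl/fl:Cd4-Cre replicate 1, 2 or 3 (limma adjusted p = 0.0583 to 0.087). The Tet1 call was also lost without the filter on low values (limma adjusted p = 0.0563). Arid2 had 48.7, 57.5 and 60.8 FPKM in Bcl11bm/m and, in Bcl11bfl/fl:Cd4-Cre, 35.98, 42.01, 36.4 and 40.1 FPKM, on both sides of a wild-type mean of 47.5 ± 9.41 FPKM (0.51 ± 0.11, limma adjusted p = 0.03), and the call was lost without Bcl11bm/m replicate 2 or 3 or Bcl11bfl/fl:Cd4-Cre replicate 1, 3 or 4 (limma adjusted p = 0.052 to 0.112).

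The remaining calls were closer to the threshold. Dnmt3b had 0.65 ± 0.16, limma adjusted p = 0.0495, and the call was lost without Bcl11bm/m replicate 1, 2 or 3 or Bcl11bfl/fl:Cd4-Cre replicate 1, 2 or 4 (limma adjusted p = 0.0878 to 0.112). Smarca2 had 0.42 ± 0.10, limma adjusted p = 0.044 and Pbrm1 0.42 ± 0.11, limma adjusted p = 0.0493, and both calls were lost with any of the 7 libraries left out (limma adjusted p = 0.0658 to 0.12 for Smarca2 and 0.0524 to 0.155 for Pbrm1). For the 4 genes lower in both mutants the direct difference did not pass the test, with 0.50 ± 0.28, limma adjusted p = 0.275 for Ezh2, 0.18 ± 0.21, limma adjusted p = 0.615 for Dnmt1, 0.21 ± 0.20, limma adjusted p = 0.522 for Rbbp7 and −0.14 ± 0.20, limma adjusted p = 0.681 for Phf10.

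Shares within a paralogue position describe which version of a subunit the cells transcribed. A share does not move when a whole library is rescaled by a common factor. Of 16 positions with 2 or 3 paralogues among these genes, 13 had the same highest paralogue in all 12 libraries, which included Chd4, Mta2, Hdac1, Mbd2, Smarca4, Smarcc2, Smarcd2, Arid1a, Brd7, Ezh2, Rnf2, Dnmt3a and Tet3. No test was run on shares. A share did not overlap at 6 of the 16 positions in Bcl11bm/m against wild-type, 2 in Bcl11bfl/fl:Cd4-Cre against wild-type and 5 between the mutants.

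Ezh2 made up 88.5% ± 2.31 (SD, n = 5) of Ezh1 and Ezh2 in wild-type, 78.9% ± 6.32 in Bcl11bm/m and 69.5% ± 11.6 in Bcl11bfl/fl:Cd4-Cre, with both mutants below the wild-type range of 85.6 to 90.9%. Smarcc1 took 36.5% ± 2.26 of Smarcc1 and Smarcc2 in wild-type and 26.4% ± 4.53 in Bcl11bfl/fl:Cd4-Cre, without overlap. Smarca4 kept 83.8% ± 3.11, 80.3% ± 1.45 and 80.1% ± 4.51 of the ATPases, with overlap of all groups. Hdac1 stayed at 68.2% ± 0.802, 68.4% ± 0.832 and 70.6% ± 2.1 of the deacetylase pair.

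Other positions differed in Bcl11bm/m. The share of Mta3 among the MTA genes was 19.9% ± 3.22 in wild-type and 30.6% ± 3.21 in Bcl11bm/m. Dnmt3b took 2.995% ± 1.14 of the de novo enzymes in wild-type, 10.9% ± 2.28 in Bcl11bm/m and 6.35% ± 2.28 in Bcl11bfl/fl:Cd4-Cre. Tet1 took 10.6% ± 2.23, 19.6% ± 5.02 and 8.62% ± 2.92 of the TET genes. Bcl7c replaced Bcl7b as the highest of the BCL7 genes, at 50.8% ± 4.04 in Bcl11bm/m against 34.1% ± 5.18 in wild-type. Within the ARID subunits, Arid2 had 28.4% ± 2.16 in wild-type, 33.3% ± 1.42 in Bcl11bm/m and 25.3% ± 3.93 in Bcl11bfl/fl:Cd4-Cre. Bcl11bm/m overlapped neither of the others, but its lowest share, 31.7%, nearly touched the highest of wild-type, 31.6%.

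**Figure D5:**
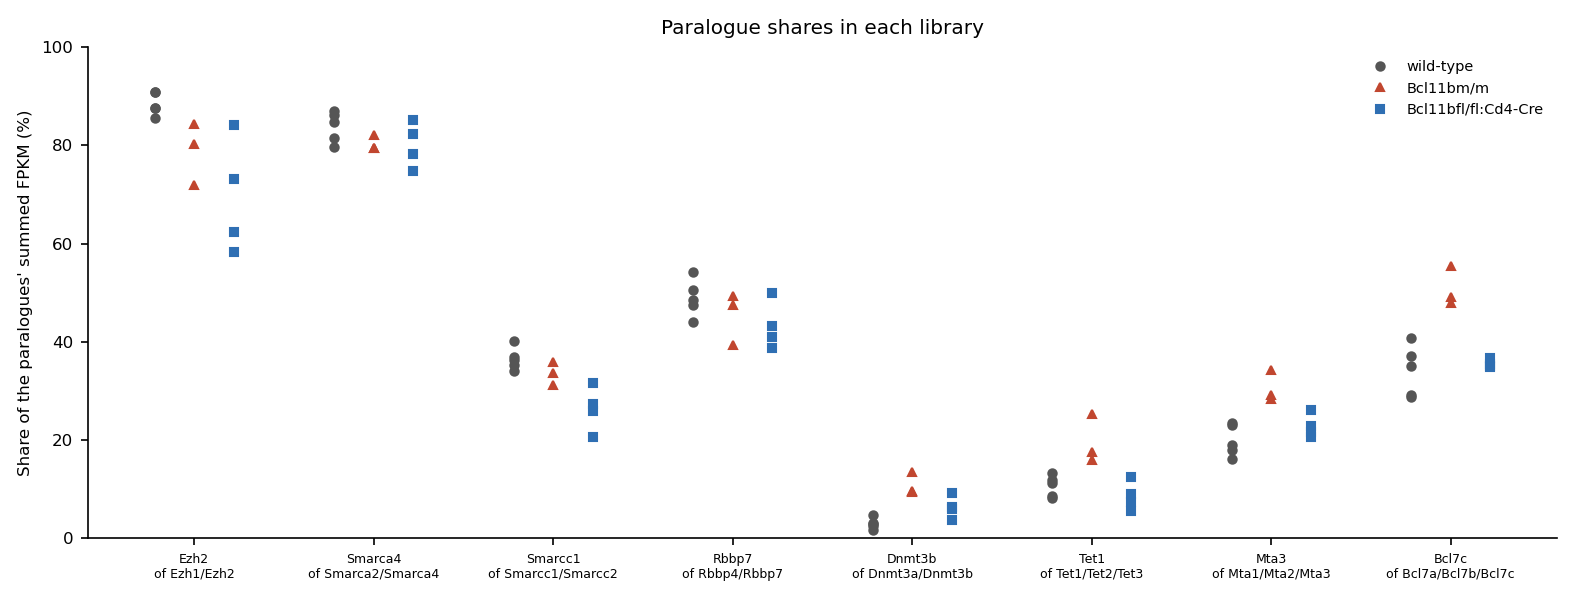
Share of a gene in the summed FPKM of the paralogues at its position, in percent, for 8 genes in each library (circles, wild-type, n = 5; triangles, Bcl11bm/m, n = 3; squares, Bcl11bfl/fl:Cd4-Cre, n = 4). The share of Ezh2 is lower in both mutants, and those of Dnmt3b, Tet1, Mta3 and Bcl7c are higher in Bcl11bm/m than in either other group.

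A wider list of 73 genes of related pathways, of which 70 were in the table and 61 were tested, was examined with the same fits. It held partners of the same complexes and also genes outside them, such as sirtuins and Smarca5, which was filed with BAF. In Bcl11bm/m 7 were called higher and 7 lower, beside 9.92% and 7.39% of all features, and in Bcl11bfl/fl:Cd4-Cre 2 higher and 7 lower, beside 4.65% and 9.86%. Their median difference was −0.06 in both. Gse1, a partner of CoREST, had 93.7, 82.6, 92.5, 85.3 and 123 FPKM in wild-type, 29.1, 32.2 and 35.6 FPKM in Bcl11bm/m, while the Bcl11bfl/fl:Cd4-Cre libraries had 73.5, 72.1, 52.2 and 82.2 FPKM, and fell in Bcl11bm/m (−1.52 ± 0.15, limma adjusted p = 0.000345). Zmynd8, a bromodomain partner of NuRD, rose in Bcl11bm/m (0.69 ± 0.11, limma adjusted p = 0.00326), and the NuRD subunit Cdk2ap1 fell in Bcl11bfl/fl:Cd4-Cre (−0.72 ± 0.19, limma adjusted p = 0.035). Smarca5, the ISWI ATPase, fell in Bcl11bfl/fl:Cd4-Cre (−0.69 ± 0.13, limma adjusted p = 0.00986).

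Accessory Polycomb genes gave 1 higher and 5 lower calls in Bcl11bm/m and 3 lower calls in Bcl11bfl/fl:Cd4-Cre out of 25 tested. Of all features, 9.92% were called higher and 7.39% lower in Bcl11bm/m, and 9.86% lower in Bcl11bfl/fl:Cd4-Cre. Phf19, a Polycomb-like subunit of PRC2, fell in both mutants, with 5.96, 6.39, 5.38, 6.89 and 5.8 FPKM in wild-type, 2.79, 2.33 and 3.4 FPKM in Bcl11bm/m and, in Bcl11bfl/fl:Cd4-Cre, 3.34, 4.55, 2.34 and 2.37 FPKM (−0.89 ± 0.14, limma adjusted p = 0.0035 and −0.80 ± 0.17, limma adjusted p = 0.0135). Aebp2, a PRC2 subunit found with Jarid2, rose in Bcl11bm/m (0.88 ± 0.20, limma adjusted p = 0.0201), and the chromodomain protein Cbx6 of PRC1 fell (−0.76 ± 0.12, limma adjusted p = 0.00426). The PRC1-linked Scmh1 fell in both mutants (−0.56 ± 0.15, limma adjusted p = 0.032 in Bcl11bm/m and −0.47 ± 0.12, limma adjusted p = 0.033 in Bcl11bfl/fl:Cd4-Cre), and in Bcl11bfl/fl:Cd4-Cre the Polycomb-like Mtf2 (−0.43 ± 0.12, limma adjusted p = 0.0377) fell.

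Of 11 further DNA methylation genes tested, Zbtb38, which binds methylated CpG, rose in Bcl11bm/m (1.24 ± 0.28, limma adjusted p = 0.0193), as did Gadd45g, a stress gene linked to demethylation (1.23 ± 0.23, limma adjusted p = 0.00792), at means of 0.444 FPKM in wild-type and 2.33 FPKM in Bcl11bm/m. The DNA glycosylase Mbd4 (−0.52 ± 0.15, limma adjusted p = 0.0494) and the methyl-CpG reader Zbtb33 (−0.42 ± 0.11, limma adjusted p = 0.0273) fell in Bcl11bfl/fl:Cd4-Cre. Among the sirtuins, the mitochondrial deacetylase Sirt3 rose in both mutants, from 5.25 ± 1.01 FPKM in wild-type to 15.6 ± 1.99 FPKM in Bcl11bm/m and 10.9 ± 1.85 FPKM in Bcl11bfl/fl:Cd4-Cre (1.42 ± 0.17, limma adjusted p = 0.000903 and 0.94 ± 0.16, limma adjusted p = 0.00653). Between the mutants 6 of the wider list were called higher in Bcl11bm/m and 3 lower, beside 7.63% and 2.6% of all features. Among these called genes, the largest in their sub-lists were Gse1 (−1.08 ± 0.16, limma adjusted p = 0.0112), Pcgf3, a PRC1 subunit (0.59 ± 0.12, limma adjusted p = 0.0236), and the methyl-CpG binding protein Mbd1 (−0.45 ± 0.10, limma adjusted p = 0.0298). The BAF and sirtuin sub-lists held no call by limma between the mutants.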

How the data were processed

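RNA-seq of 12 libraries was used, 5 wild-type, 3 Bcl11bm/m and 4 Bcl11bfl/fl:Cd4-Cre. The authors mapped reads with tophat2 and deposited FPKM values per gene and library, estimated with Cufflinks (2.1.1 per the submitters' processing notes, build mm9, iGenome annotation). Further scaling is not described. The labels' protocol describes a low-input kit and DN NKT cells in place of DP thymocytes. The study's methods describe strand-specific libraries, so the sorted population, library chemistry and strand use rest on sources that differ. FPKM shares between close paralogues or overlapping genes depend on how Cufflinks divided the reads.

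The 10780 of 23234 features that averaged 1 FPKM or more were tested on log2(FPKM + 1) by limma 3.58.1 in R 4.3.3 (lmFit, eBayes with a trend) on the 2 groups compared, two-sided, without covariates, with Benjamini-Hochberg adjustment over all features and a threshold of 0.05. Group means are given with SD. The remaining steps used matplotlib 3.10.9, numpy 2.4.6 and pandas 2.3.3 under Python 3.11.15. The 52 genes, the lists and the tests were chosen with earlier results of these data known. All 52 genes may be named, with full statistics for called genes and paralogues, and of the wider list up to 3 called genes per sub-list and comparison by size.

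In simulated data, 100 genes were changed by 1 and 100 others by 0.5 on the log2 scale among 10780. At a change of 1 the fit recovered 43% in Bcl11bm/m against wild-type, 64% in Bcl11bfl/fl:Cd4-Cre against wild-type and 58% between the mutants. At a change of 0.5 it recovered 9%, 11% and 14%, so small differences can go uncalled. False calls made up 5.45%, 5.06% and 7.69% of the calls. The changed genes came from all levels and were a smaller share than the 17.3%, 14.5% and 10.2% called in the data. The recovered shares are therefore not those of the 52 genes. Depth was estimated from the steps of low FPKM values of 3919 genes with 1 transcript. Of the 431 to 522 values used per library, 63.8 to 73.5% lay within 0.1 of a whole fragment, against 20% if spread evenly. Positions are from GENCODE vM1 on NCBIM37, where each of the 52 symbols matched 1 gene. RefSeq promoters (GRCm38.p6) matched 44 of the 52 symbols. Alternatives were leaving out each library, robust empirical Bayes, library quality weights, a replicate block, 1 fit of all 3 groups, quantile normalization, median-ratio scaling, a filter at 5 FPKM or none, and a pseudocount of 0.1.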

Additional observations from a re-analysis of the deposited data

Results flagged for a closer look

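Jarid2 in wild-type replicate 5 had 21.7 FPKM, apart from the other wild-type libraries at 17.3 to 18.4 FPKM. Mbd2 in Bcl11bfl/fl:Cd4-Cre replicate 2 had 109.9 FPKM, apart from the others of its group at 80.9 to 85.0 FPKM. These 2 were found among 106 groups of 4 or 5 libraries examined, and chance flags about 1 in 20. Between the mutants 7 genes differed by limma's test of the difference itself, higher in Bcl11bm/m, at log2 differences of 0.51 for Arid2, 0.62 for Bcl7c, 0.67 for Bmi1, 0.65 for Dnmt3b, 0.42 for Pbrm1, 0.42 for Smarca2 and 0.95 for Tet1. Their causes were not tested.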

How the results depend on the processing

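The 28 calls (11, 10 and 7 in the order Bcl11bm/m against wild-type, Bcl11bfl/fl:Cd4-Cre against wild-type and Bcl11bm/m against Bcl11bfl/fl:Cd4-Cre) kept their direction under every alternative run. Leaving out a library gave 3 to 14, 2 to 21 and 0 to 4 called genes of the set, and 1021 to 2349, 700 to 2678 and 313 to 1121 over all features. With each library left out in turn 3, 2 and 0 of the calls held throughout, and where 1 library of a group of 3 was left out the fit rested on 2. The replicate block, although same-numbered libraries did not deviate together (correlations −0.21 to 0.15), left 0, 1 (Ezh2) and 0 of the set and 283, 456 and 30 features, by limma. What the replicate numbers stand for is not given in the labels. Library quality weights gave 20, 22 and 11 of the set and 3604, 3176 and 2173 features. No filter gave 6 of the set in Bcl11bm/m against wild-type and 4 between the mutants. A filter at 5 FPKM gave 1189 and 656 features in those comparisons and 4 of the set between the mutants. Median-ratio scaling gave 17 of the set in Bcl11bm/m against wild-type and 4 between the mutants, and 1 fit of all 3 groups gave 2 between the mutants. The cause was not tested for any of these. Apart from the block, 3, 6 and 1 calls held under all alternatives that kept every library, and Dnmt3b in Bcl11bm/m against wild-type held wherever it was tested, which it was not at 5 FPKM. Against wild-type, the calls lost under these were in Bcl11bm/m Actl6a, Mbd2, Mta3, Rbbp7 and Tet1 without the filter, Actl6a with the filter at 5 FPKM, Bcl7a in 1 fit of all 3 groups, Mbd2 with robust empirical Bayes, Dnmt1 and Mta3 as given above, and in Bcl11bfl/fl:Cd4-Cre Hdac2, Phf10 and Smarce1 without the filter, Phf10 and Pbrm1 under median-ratio scaling and Phf10 under quantile normalization. Between the mutants, the Bcl7c and Tet1 calls were lost as given above. Arid2, Smarca2, Pbrm1 and Dnmt3b were lost under median-ratio scaling, under quantile normalization and in 1 fit of all 3 groups. Pbrm1 and Dnmt3b were also lost without the filter, Pbrm1 with the filter at 5 FPKM, and Dnmt3b with the pseudocount of 0.1 and with robust empirical Bayes. Depth, lowest in Bcl11bm/m, limits the low genes Dnmt3b, Tet1 and Smarcd3.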
